A study of Mus musculus with 24 samples.

Results

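Heart muscle cells with engineered loss of the 2 myocardin-related transcription factors, Mrtfa and Mrtfb, were compared directly with heart muscle cells in which myocardin itself was targeted. The comparison sets the 6 libraries labelled DKO against the 6 labelled MKO, which are 12 of the 24 libraries of the series, over every gene of the count table. Every mouse received an adeno-associated virus (AAV) on postnatal day 1, and its cardiomyocytes were isolated and sorted at 4 weeks of age. MKO animals were of the genotype Rosa-Cas9/Cas9, which carries the Cas9 nuclease, and received AAV-Myocd-sgRNA, a virus with guide RNA against myocardin. DKO animals were Mrfta-/-; Mrtfb-F/F; Rosa-Cas9/Cas9 (spelled as labelled), so they lacked Mrtfa from the germ line and carried floxed Mrtfb, and they received AAV-Cre. Cas9 was thus shared by both groups, while genotype and virus differed together, and their parts in any difference cannot be told apart. Of the other libraries, 6 came from Rosa-Cas9/Cas9 mice given AAV-Cre (Ctrl) and 6 from the DKO genotype given AAV-Myocd-sgRNA (TKO). The promoters that drive Cre and the guide, and whether the guide virus also carries Cre, are not stated in the labels. The labels do not state that each library is its own animal, and the p-values describe library-to-library spread, which may be technical.

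Myocardin (Myocd) and its relatives Mrtfa and Mrtfb are coactivators of serum response factor (Srf), a DNA-binding protein that recognises the CArG box. Mrtfa and Mrtfb are held in the cytoplasm by monomeric actin and enter the nucleus when actin polymerises, where they switch on genes for actin and its partners. Myocardin is nuclear at rest and is best known for activating genes of the contractile apparatus in heart and smooth muscle. In the deposited table Mrtfa and Mrtfb appear under their older symbols Mkl1 and Mkl2.

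DKO 1 stood apart from the other 11 libraries and the main counts are given with and without it. It was the shallowest of the 12 with 5830185 counts, against 8498165 to 12157279 in the other DKO libraries and 9731621 to 13201995 in MKO. On the first principal component, which held 50.2% of the variance over the 12 libraries, it lay at 107 while the others lay between -24.4 and -1.72. Its mean correlation with its own group was 0.920, against 0.970 to 0.986 for the other libraries. Judged by Xist and Y-linked genes, 4 of the 6 MKO libraries and 1 of the 6 DKO libraries were male, and the male DKO library was DKO 1. Sex therefore moved with the groups, and counts from a fit with a term for sex are given beside those they change. Cardiomyocyte genes dominated every library: Myh6, the adult heart myosin, ranged from 55622 to 71302 counts-per-million (CPM) in MKO and from 23244 (DKO 1) to 68511 in DKO. Markers of other cell types were present at low levels and are set beside the results they touch.

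In DKO cells, 7 of 44 tested actin cytoskeleton genes were lower than in MKO cells and none was higher. Few genes of other lists passed the test, and all lists were chosen with earlier results of these data known. The regulatory myosin light chain Myl9, smooth muscle actin Acta2, cytoplasmic gamma-actin Actg1 and calponin 2 (Cnn2) were lower in DKO by more than 2-fold. The neuronal activity gene Arc, which lies 6.34 Mb from Mrtfa, the cytokine Il15 and the G protein subunit Gnao1 were higher. In all, 97 of 12281 tested genes differed (0.79% called, edgeR quasi-likelihood test, adjusted p under 0.05), 60 lower in DKO (0.489%) and 37 higher (0.301%). Of these, 32 differed at least 2-fold, 20 lower and 12 higher. At an unadjusted p under 0.05 there were 1877 genes. For 69 of the 97 the DKO and MKO libraries did not overlap, against 1.8% of all tested genes, but the same libraries made the calls. The median log2 ratio of all tested genes was 0.01.

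Without DKO 1 there were 128 called genes (1.04%), 76 lower (0.615%) and 52 higher (0.421%), of which 86 were among the 97 and 42 were not (of these 42, those named below are members of the gene lists). All 97 kept their direction. This fit left only female libraries in DKO beside 4 male and 2 female in MKO, so sex was less balanced than with DKO 1. The 11 that missed the threshold without DKO 1 were Adra1d, Ntn1, Fbxo46, Rragd, Osbpl3, Lrrc1, Snd1, Tcta, Adora1, Jrk and Slc16a8, with adjusted p between 0.0526 and 0.0822. A term for sex raised the count to 366 genes (2.98%), 156 lower (1.27%) and 210 higher (1.71%), and 92 of the 97 remained. In the female libraries alone, 5 DKO against 2 MKO, 1 gene passed, Mkl1 itself, while all 97 had the same direction. The count was 64 without DKO 2, 58 without MKO 3, 63 without MKO 4 and 53 without MKO 6.

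**Figure D1:**
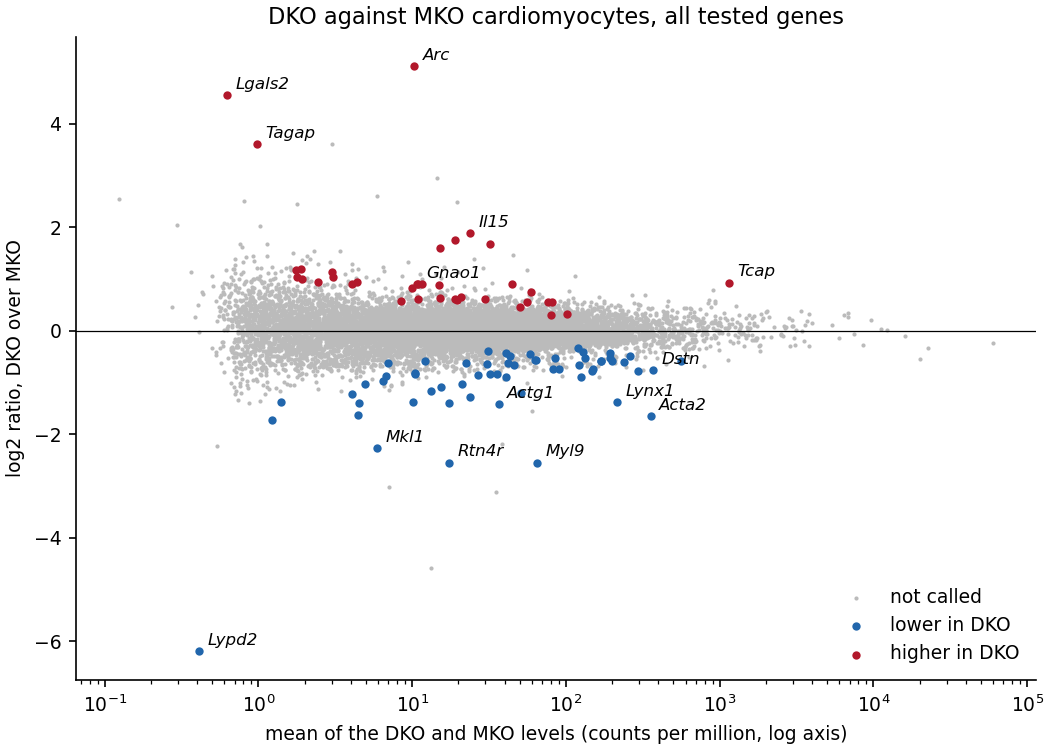
Each point is one of the 12281 tested genes, with the mean of the DKO and MKO levels on a log axis (CPM) against the log2 ratio of DKO over MKO. Blue points are the 60 genes lower in DKO and red points the 37 higher in DKO at an adjusted p under 0.05, and 1 gene at 0 in every DKO library, Lypd2, sits lowest with a fitted ratio that is no measured size.

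Mkl1 (Mrtfa, chromosome 15, 81012281 to 81190757 in mm10) had 6.39, 10.3 and 11.9 CPM in MKO (lowest, median and highest library) and 1.40, 1.96 and 2.77 in DKO. The groups did not overlap, and the log2 ratio was -2.27 ± 0.21 (SE, adjusted p = 4.78e-07). Mkl2 (Mrtfb, chromosome 16, 13256481 to 13417529) had 44.1, 51.4 and 59.2 CPM in MKO against 26.6, 32.9 and 39.3 in DKO. It was lower in every DKO library, with a log2 ratio of -0.63 ± 0.11 (adjusted p = 0.0023). Reads still lay on both genes in DKO. The floxed Mrtfb allele keeps the exons outside the deleted part. This does not speak to the reads on Mrtfa, which was lost from the germ line. Exon counts that would show a deletion in either gene were not analysed here.

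Myocd, the target of the guide, was not absent from MKO RNA: it had 120, 140 and 187 CPM there against 175, 206 and 242 in DKO. The groups overlapped, and the log2 ratio of 0.54 ± 0.13 missed the threshold (adjusted p = 0.0554, and 0.0636 without DKO 1). It passed with a sex term, at a log2 ratio of 0.62 (adjusted p = 0.0188). Ctrl libraries ranged from 153 to 234 CPM. A guide changes the sequence at its cut and need not lower the transcript, so the count is no check of the targeting. Srf itself had 72.8, 83.4 and 114 CPM in MKO and 52.0, 59.7 and 105 in DKO. The highest DKO value was that of DKO 1, and the others ended at 63.6, below every MKO library. The log2 ratio was -0.43 ± 0.14 (adjusted p = 0.181) with DKO 1 and -0.60 ± 0.11 (adjusted p = 0.00547) without it. Srf did not pass with a sex term over all libraries (adjusted p = 0.116). The ternary complex factors Elk1, Elk3 and Elk4, which bind Srf in competition with the myocardin family, gave log2 ratios of 0.00, -0.35 and -0.20 and none passed.

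A list of 47 genes of the actin cytoskeleton known as targets of Mrtf and Srf had 44 tested members. Of these 7 were lower in DKO and none higher: Myl9, Acta2, Actg1, Cnn2, Pdlim7, Dstn and Wdr1. The list's median log2 ratio was -0.43, and 38 of the 44 lay below 0. Without DKO 1, 12 members were lower and the median was -0.36, and with a sex term 8 were lower and the median was -0.38. The list was chosen with earlier results of these data known. Several members are also expressed by vascular and connective tissue cells, whose marker levels are given further on.

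The promoters of the 4 members with the largest called differences are shown because 3 of them hold a full CArG box. Each is the 250 bases before the transcription start in RefSeq (GRCm38.p6, the assembly that mm10 names), written 5′ to 3′ on the gene's strand. Capitals mark CArG boxes: a pair of C, a core of 6 letters and a pair of G, where a full box has only A or T in the core and a near box has 1 C or G there. The box reads as the same class on both strands, so a single scan covers both.
Myl9 (chr2:156775214-156775463, plus strand): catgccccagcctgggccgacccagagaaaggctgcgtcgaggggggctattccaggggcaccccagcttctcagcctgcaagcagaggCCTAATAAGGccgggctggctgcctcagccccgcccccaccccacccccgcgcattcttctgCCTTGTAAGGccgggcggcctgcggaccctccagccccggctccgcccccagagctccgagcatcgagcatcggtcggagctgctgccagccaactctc
Acta2 (chr19:34255374-34255623, minus strand): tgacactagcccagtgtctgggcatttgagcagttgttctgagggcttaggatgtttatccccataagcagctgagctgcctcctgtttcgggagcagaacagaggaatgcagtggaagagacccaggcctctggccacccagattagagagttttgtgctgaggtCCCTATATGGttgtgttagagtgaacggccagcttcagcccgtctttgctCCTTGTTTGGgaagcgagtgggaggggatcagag
Actg1 (chr11:120348496-120348745, minus strand): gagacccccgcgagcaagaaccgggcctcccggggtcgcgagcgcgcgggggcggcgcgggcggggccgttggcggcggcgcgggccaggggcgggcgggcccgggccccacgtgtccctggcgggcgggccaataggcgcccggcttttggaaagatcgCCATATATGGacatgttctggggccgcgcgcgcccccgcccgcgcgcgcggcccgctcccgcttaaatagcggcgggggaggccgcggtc
Cnn2 (chr10:79988350-79988599, plus strand): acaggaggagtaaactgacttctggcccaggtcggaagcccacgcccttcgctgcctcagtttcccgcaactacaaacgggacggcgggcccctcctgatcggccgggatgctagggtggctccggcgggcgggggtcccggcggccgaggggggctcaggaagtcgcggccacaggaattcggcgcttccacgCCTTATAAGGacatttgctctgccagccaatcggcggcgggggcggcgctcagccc

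In Myl9 the full box CCTAATAAGG began 161 bases before the start and a near box, CCTTGTAAGG, 99 bases before it. Actg1 had CCATATATGG at 90 bases and Cnn2 had CCTTATAAGG at 56. Acta2 had 2 near boxes, CCCTATATGG at 84 bases and CCTTGTTTGG at 34, and Dstn had 1, CCATGTATGG, at 106. Neither kind was found in the 250 bases before Pdlim7 or Wdr1. A full box stood in the promoter of 4 of the 47 genes lower in DKO that matched the RefSeq table (8.51%, of 60), Stbd1 being the fourth, and in 0 of the 24 matched genes higher in DKO (of 37). All tested genes that matched had one in 126 of 8792 promoters (1.43%), and all 32851 promoters of the table in 1.47%. With near boxes included the shares were 11 of 47 (23.4%), 2 of 24 (8.33%), 9.63% and 8.59%. The tested members of the cytoskeletal list had a full box in 10 of 38 promoters, but that list was assembled from known Srf targets. A match is a description of letters and shows no binding.

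Myl9 (chromosome 2, 156775464 to 156781657), whose product is phosphorylated to start contraction in smooth muscle and non-muscle cells, had 94.5, 109 and 134 CPM in MKO. DKO libraries had 7.08, 14.8 and 34.8 CPM, so that every DKO library was well under the lowest MKO library. The log2 ratio was -2.55 ± 0.33 (adjusted p = 8.12e-05) and -2.75 without DKO 1. Ctrl libraries lay between the groups at 36.8 to 84.4 CPM, and TKO libraries at 6.88 to 20.3.

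Acta2 (chromosome 19, 34241091 to 34255336), the actin of smooth muscle and of the fetal heart, had 411, 515 and 757 CPM in MKO and 116, 174 and 256 in DKO. There was no overlap, and the highest DKO library was DKO 1. The log2 ratio was -1.64 ± 0.26 (adjusted p = 0.00103). Ctrl had 585 to 961 CPM and TKO 37.2 to 183. Actg1 (chromosome 11, 120345690 to 120348484), 1 of the 2 cytoplasmic actins, had 25.5, 46.5 and 93.2 CPM in MKO against 11.8, 21.5 and 25.7 in DKO. The top DKO library touched the lowest MKO library, and the log2 ratio was -1.41 ± 0.30 (adjusted p = 0.0208). With a sex term Actg1 missed the threshold (adjusted p = 0.0542).

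The fitted ratios of the other 3 tested actins were also below 0, and the calls of Actc1 and Actb turned on DKO 1. Actc1, the actin of the heart's sarcomeres, had 22318, 24012 and 25285 CPM in MKO. DKO 1 had 30050 CPM and the other 5 DKO libraries 12147 to 15600, below every MKO library. The log2 ratio of Actc1 was -0.55 ± 0.19 (adjusted p = 0.193) with DKO 1 and -0.80 ± 0.14 (adjusted p = 0.00262) without it. It did not pass with a sex term over all libraries (adjusted p = 0.135). Actb, the second cytoplasmic actin, had 109 to 346 CPM in MKO, 216 in DKO 1 and 56.4 to 114 in the other DKO libraries. It passed without DKO 1 (log2 ratio -1.15 ± 0.28, adjusted p = 0.0393) and not with it (-0.89 ± 0.29, adjusted p = 0.171). Nor did it pass with a sex term over all libraries (-0.51, adjusted p = 0.187). Ctrl libraries had 85.3 to 228 CPM of Actb. Over Ctrl its log2 ratio was 0.78 in MKO and -0.11 in DKO, and neither passed. Acta1, skeletal actin, had 58.0, 80.3 and 123 CPM in MKO and 12.7, 29.8 and 44.9 in DKO. The groups did not overlap, yet at a log2 ratio of -1.54 ± 0.48 it did not pass (adjusted p = 0.146, and 0.193 without DKO 1). Actins are near-identical over their coding sequence and the treatment of multi-mapped reads is not stated in the labels, so the split between them is uncertain.

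**Figure D2:**
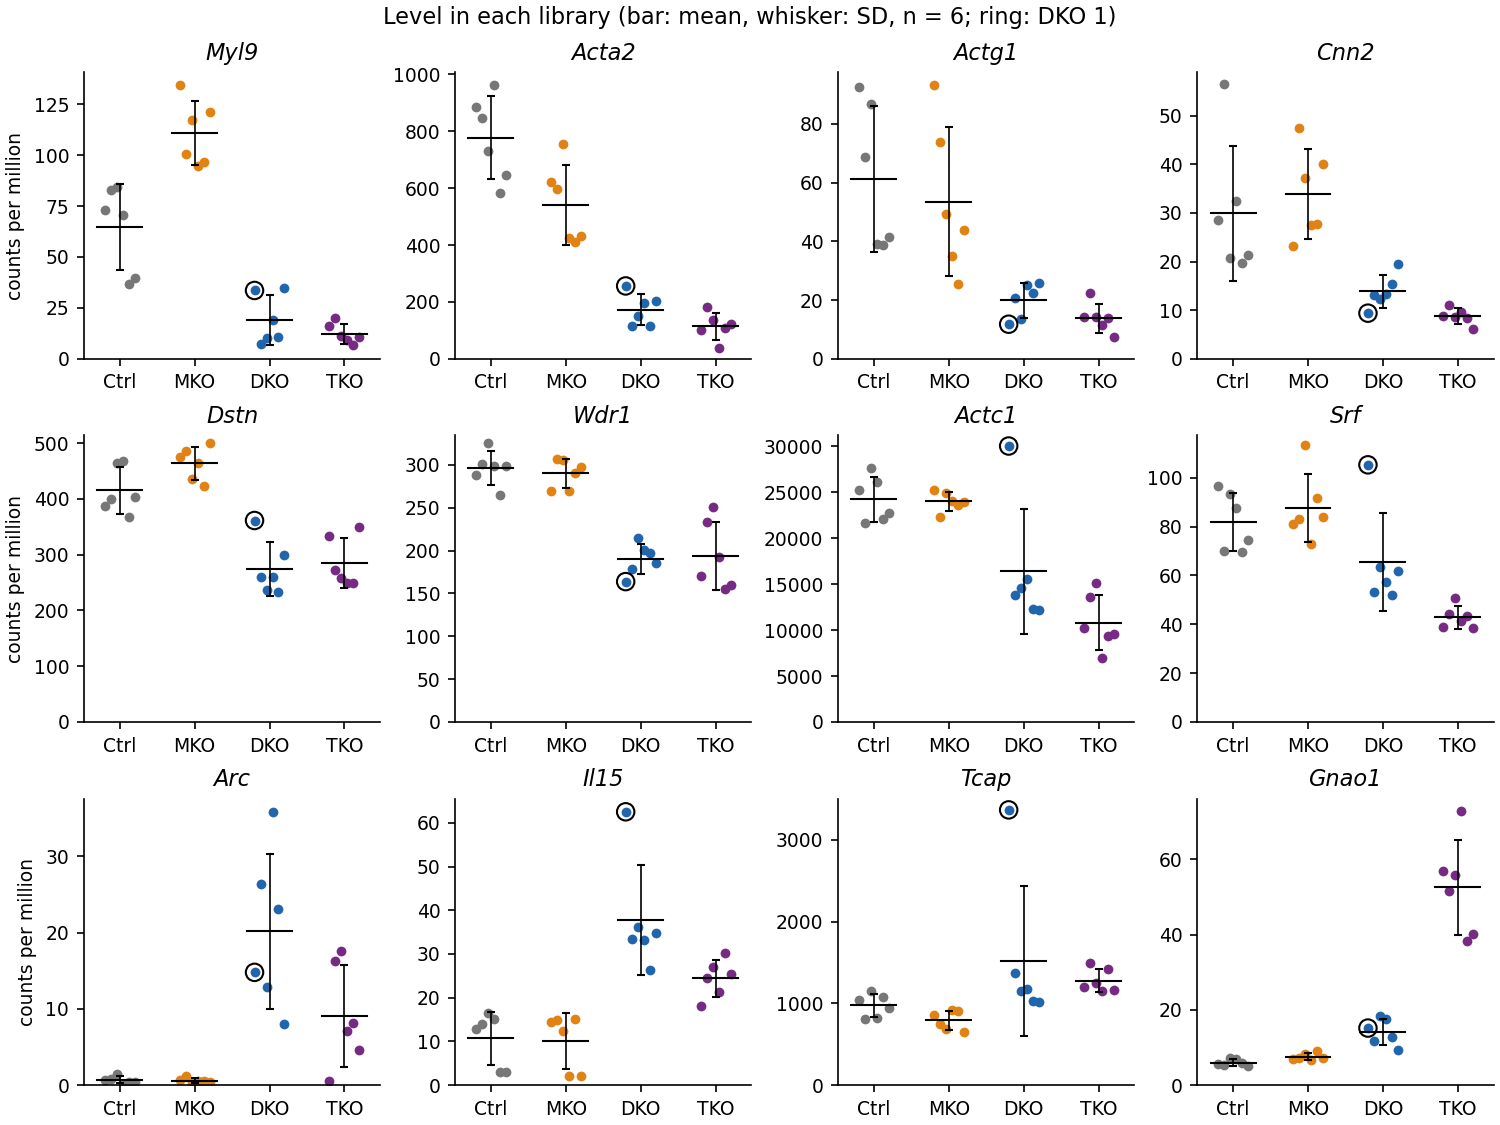
Level (CPM) in each of the 6 libraries of Ctrl, MKO, DKO and TKO for 12 genes, each panel on its own scale from 0, with the mean as a bar, the SD as a whisker and DKO 1 ringed. Myl9, Acta2, Cnn2, Dstn and Wdr1 have every DKO library below every MKO library, while in Actc1 and Srf DKO 1 lies above most MKO libraries and the other 5 DKO libraries lie below all of them.

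Proteins that bind actin filaments made up the rest of the cytoskeletal calls. Cnn2, which binds actin and slows myosin, had 23.2, 32.4 and 47.4 CPM in MKO and 9.39, 13.2 and 19.5 in DKO (log2 ratio -1.27 ± 0.23, adjusted p = 0.00427). Dstn, destrin, which takes filaments apart, had 423, 469 and 500 CPM against 233, 259 and 361 (-0.76 ± 0.11, adjusted p = 0.000316). Wdr1, the cofactor of destrin and cofilin, had 269, 294 and 307 CPM against 164, 191 and 214 (-0.61 ± 0.10, adjusted p = 0.00204). For these genes every DKO library was under every MKO library. Pdlim7, a PDZ-LIM adaptor on actin, had 34.3, 43.9 and 59.5 CPM in MKO and 21.6, 23.4 and 38.5 in DKO. DKO 1 was its highest DKO library and overlapped MKO, and the log2 ratio was -0.84 ± 0.17 with it (adjusted p = 0.015) and -0.97 without it (adjusted p = 0.00154).

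Without DKO 1 the list also held Actc1, Actb, Srf, Vcl and Capzb as lower. Vcl, vinculin of cell adhesions, had 340 to 436 CPM in MKO, 275 to 338 in DKO 2 to 6 and 126 in DKO 1, with a log2 ratio of -0.35 ± 0.08 (adjusted p = 0.0239) without DKO 1 and -0.50 ± 0.14 (adjusted p = 0.104) with it. Capzb, which caps filament ends, had 400 to 472 CPM in MKO, 293 to 367 in DKO 2 to 6 and 548 in DKO 1. The log2 ratio of Capzb was -0.37 (adjusted p = 0.0384) without DKO 1. With a sex term the list held Myl9, Acta2, Cnn2, Pdlim7, Dstn and Wdr1, together with Vcl and the integrin Itgb1 (adjusted p = 0.0167 and 0.0337). Members that did not pass in any of the 3 fits include Myh9 (log2 ratio -0.70 ± 0.37), Flna (-0.65 ± 0.36), Tpm1 (-0.10 ± 0.12) and the smooth muscle marker Tagln (0.30 ± 0.41). Cofilin 1 (Cfl1), close to the threshold in each, had a log2 ratio of -0.45 ± 0.11 (adjusted p = 0.059, 0.0525 without DKO 1 and 0.0741 with a sex term). The 2 classic targets that the myocardin family shares with the Yap pathway, Ctgf and Cyr61, gave -0.31 ± 0.18 and 0.36 ± 0.34.

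**Figure D3:**
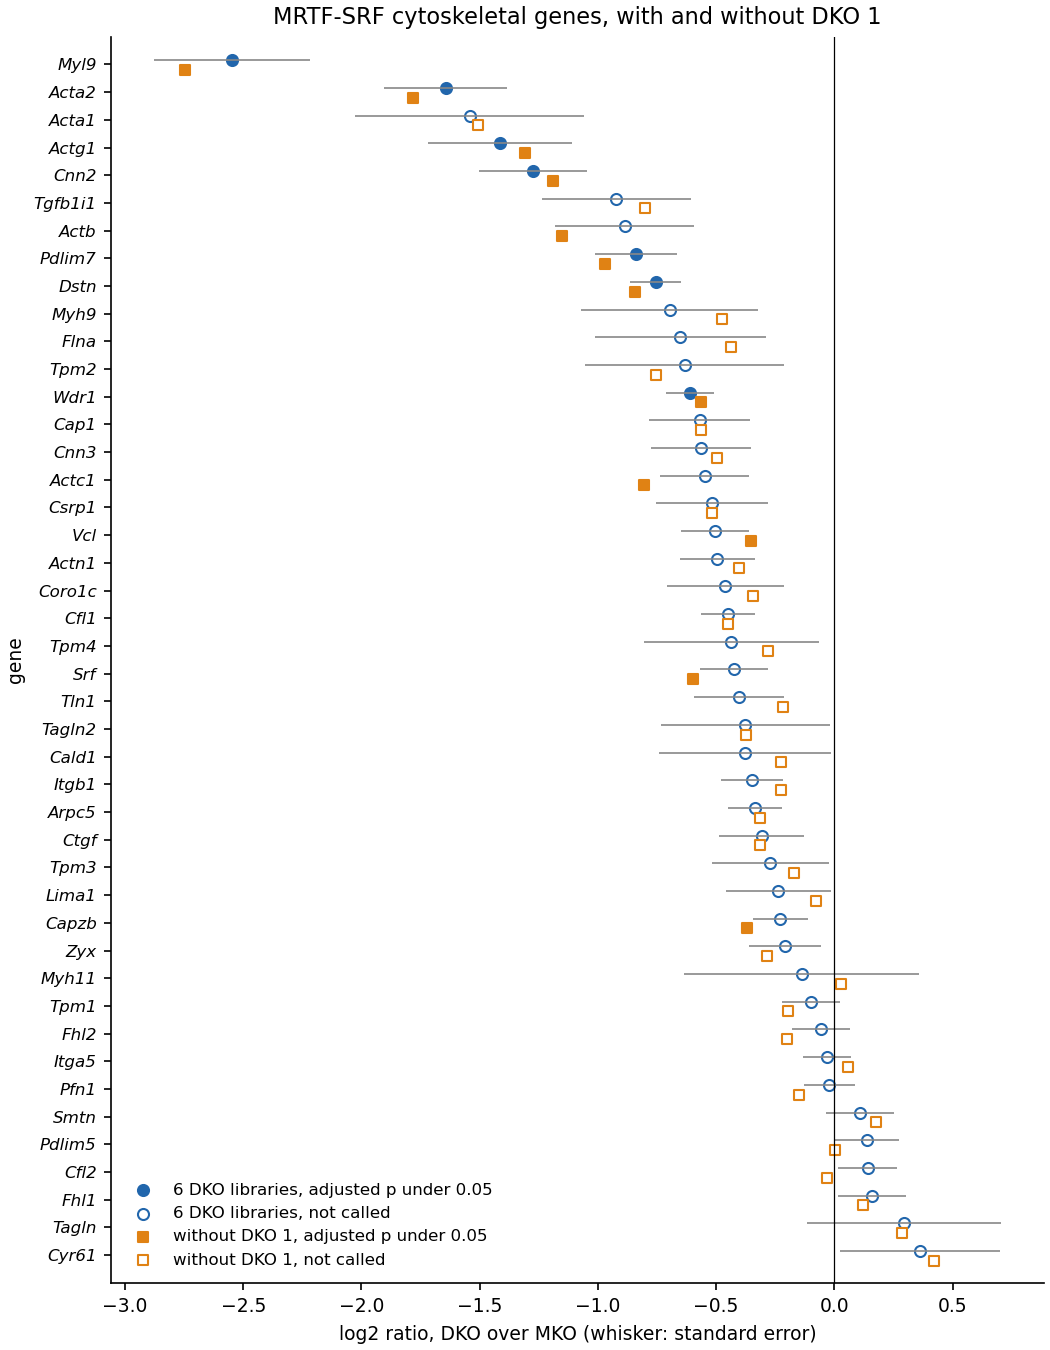
Log2 ratio of DKO over MKO for the 44 tested members of the cytoskeletal list, with all 6 DKO libraries (circles, whiskers are standard errors) and without DKO 1 (squares), filled where the adjusted p was under 0.05. With all libraries 7 members are filled and 38 lie left of 0, and without DKO 1 there are 12 filled and 37 left of 0.

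Further genes outside the list, picked after their values were seen, were also lower in DKO. Vasp, which lengthens filaments at their ends, had 37.0, 38.0 and 54.2 CPM in MKO and 16.4, 24 and 27.4 in DKO (log2 ratio -0.83 ± 0.15, adjusted p = 0.00481). Micall1, a membrane trafficking protein of the MICAL-like family, had 172 to 229 CPM in MKO and 74.7 to 126 in DKO. The log2 ratio of Micall1 was -0.78 ± 0.12 (adjusted p = 0.00103), and it lies 1.88 Mb from Mrtfa. Plekho1, a membrane adaptor that also binds actin capping protein, had 30.8, 34.8 and 38.8 CPM against 14.7, 19.4 and 23.3 (-0.85 ± 0.14, adjusted p = 0.00116). Sh3kbp1, an adaptor of receptor endocytosis, had 212 to 253 CPM in MKO and 151 to 173 in DKO, with the tightest estimate among these (-0.54 ± 0.07, adjusted p = 0.000183). In none of these 4 did the groups overlap. Profilin 2 (Pfn2), which feeds actin monomers to filaments, was higher in DKO at 49.4, 66.1 and 89.7 CPM against 35.6, 46.3 and 50.6 (0.55 ± 0.12, adjusted p = 0.0208, with overlap).

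Lists of electrical and adrenergic signalling held 1 or 2 called genes each. Kcne1, the accessory subunit of the slow delayed rectifier potassium channel, had 340, 361 and 419 CPM in MKO and 186, 213 and 283 in DKO. No library overlapped, and the log2 ratio was -0.78 ± 0.14 (adjusted p = 0.00384). It was the 1 called gene among 39 tested ion channel genes, whose median was -0.07, and with a sex term Abcc9, a subunit of the ATP-sensitive potassium channel, was lower as well. Without DKO 1 the list also held Cacna1h, a T-type calcium channel, as higher: MKO had 11.1 to 22.4 CPM, DKO 2 to 6 had 21.3 to 34.9 and DKO 1 had 4.39 (0.80 ± 0.19, adjusted p = 0.0324). Among 32 tested genes of adrenergic and G protein signalling, 1 was higher and 1 lower, with a median of -0.15. Adcy5, a main adenylyl cyclase of the heart, had 102, 111 and 126 CPM in MKO and 53.7, 67.4 and 81.0 in DKO (-0.74 ± 0.14, adjusted p = 0.00498). Gnao1, the alpha subunit of the G protein Go, had 6.59, 7.25 and 9.12 CPM against 9.45, 14 and 18.3 (0.90 ± 0.17, adjusted p = 0.00481). Both pairs of groups were separate, and TKO libraries stood well above DKO for Gnao1, at 38.3 to 72.8 CPM. A pair of receptors outside these lists, picked after their values were seen, were called as well: the alpha-1D adrenergic receptor Adra1d was lower (-1.38 ± 0.33, adjusted p = 0.0478) and the adenosine receptor Adora1 was higher (0.55 ± 0.13, adjusted p = 0.0343). Both missed the threshold without DKO 1, and Adra1d was at or below 2.37 CPM in every DKO and MKO library.

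Other genes with large called falls are given singly. Smad7, the feedback inhibitor of transforming growth factor beta signalling, had 16.6, 21.2 and 24.4 CPM in MKO and 5.59, 8.08 and 19 in DKO. DKO 5 was the highest and overlapped MKO, and the log2 ratio was -1.09 ± 0.23 (adjusted p = 0.0208). Dact3, an antagonist of Wnt signalling, had 26, 27.9 and 30.8 CPM against 10.1, 13.6 and 20.6 without overlap (-1.03 ± 0.20, adjusted p = 0.00691). Lynx1, a membrane-anchored modulator of nicotinic receptors, had 258, 300 and 376 CPM against 69.7, 132 and 151 (-1.37 ± 0.17, adjusted p = 3.86e-05). Rtn4r, the receptor for the axon growth inhibitor Nogo, had 19.2, 25.6 and 49.4 CPM against 1.14, 5.05 and 8.32 (-2.55 ± 0.38, adjusted p = 0.000413). Snn, stannin, a small membrane protein, had 20.3, 25.3 and 29.1 CPM against 7.75, 9.60 and 12.1 (-1.40 ± 0.14, adjusted p = 9.43e-07). The last 3 lie within 10 Mb of Mrtfa or Mrtfb, as described below. Plekhh1 had 57.7, 71.5 and 79.2 CPM against 7.79, 33.1 and 44.5, where the lowest value was DKO 1 (-1.20 ± 0.26, adjusted p = 0.0209). Netrin 1 (Ntn1), a guidance and adhesion cue, had 78.2, 104 and 130 CPM against 49.3, 61.3 and 74.8 (-0.74 ± 0.18, adjusted p = 0.0478), and did not pass without DKO 1 (adjusted p = 0.0822).

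Metabolic genes with calls were few. Slc16a1, the lactate and pyruvate transporter MCT1, had 548, 653 and 852 CPM in MKO and 399, 452 and 503 in DKO, with no overlap (log2 ratio -0.58 ± 0.11, adjusted p = 0.00682). It was the 1 called gene of 27 tested in glycolysis and glucose use. That list had a median of -0.09 with 18 members below 0, and without DKO 1 a median of -0.13 with 26 below 0. With a sex term Hk1, Pfkl and Pdk1 were lower too (adjusted p = 0.00769, 0.0119 and 0.0392). Prkab2, a regulatory subunit of the energy sensor AMPK, had 45.6, 53.7 and 59.7 CPM against 8.39, 31.4 and 39.5, with DKO 1 as the lowest (-0.90 ± 0.22, adjusted p = 0.0478). Stbd1, which tethers glycogen to membranes, had 40.2 to 67.6 CPM in MKO and 22 to 49.9 in DKO (-0.66 ± 0.15, adjusted p = 0.0337). Oxidative phosphorylation had 0 of 51 called genes, fatty acid oxidation 0 of 44 (with a sex term 1, the uncoupling protein Ucp2, higher, adjusted p = 0.0393), and creatine kinase and its transporter 0 of 6. Ucp2 had 2497 CPM in DKO 1 and 777 to 920 in the other DKO libraries. The sum over the oxidative phosphorylation list was 108813 CPM in DKO 1, against 52688 to 64690 in MKO, and the lowest DKO library had 52310. Its median log2 ratio was 0.25 with DKO 1 and -0.02 without it.

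Of 40 tested genes of the extracellular matrix and its proteases, 2 were lower and none higher. Timp2, an inhibitor of matrix metalloproteinases that also helps activate one of them, had 146, 164 and 183 CPM in MKO and 59.5, 94.3 and 108 in DKO. The groups were far apart, with a log2 ratio of -0.89 ± 0.13 (adjusted p = 0.000316). Mmp15, a membrane-type metalloproteinase, had 193, 251 and 292 CPM against 91.1, 166 and 194 (-0.59 ± 0.13, adjusted p = 0.0268). The list's median was -0.46 and 34 of 40 members lay below 0, and without DKO 1 the median was -0.29. Its summed level was 5525 to 7993 CPM in MKO, 2027 in DKO 1 and at most 5624 in DKO.

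Marker lists of endothelial, fibroblast, mural and leukocyte cells had median log2 ratios below 0, with Acta2 as the 1 called member among them. Endothelial markers summed to 819 to 1731 CPM in MKO and 433 to 1082 in DKO (782 upward without DKO 1), with all 16 tested members below 0, none called and a median of -0.46 (-0.35 without DKO 1). Fibroblast markers summed to 537 to 1299 CPM in MKO and 311 to 864 in DKO (503 upward without DKO 1), with 11 of 14 below 0, none called and a median of -0.33. That median was -0.21 without DKO 1 and -0.54 with a sex term. Markers of smooth muscle and pericytes summed to 1164 to 1542 CPM in MKO and 472 to 874 in DKO (610 upward without DKO 1), a sum that includes Acta2. Of these 12, 11 lay below 0, Acta2 was the 1 called and the median was -0.56. It was -0.42 without DKO 1 and -0.34 with a sex term, which also called Abcc9 as lower (adjusted p = 0.0217). DKO 1 had the lowest sum of each of these lists. Among markers of contractile smooth muscle, Cnn1 was at most 1.37 CPM, Tagln was 1.61 to 4.99 in MKO and 0.759 to 8.88 in DKO, and Myh11 was 2.89 to 17.1 and 2.40 to 22.6. The pericyte receptor Pdgfrb had 44.8 to 127 CPM in MKO, 7.79 in DKO 1 and at most 67.8 in DKO, and Notch3 had 19.1 to 43.9, 3.40 and at most 23.8. Leukocyte markers summed to 9.21 to 32.9 CPM in MKO and 9.52 to 18.9 in DKO, with none of 8 called, and adipocyte markers to at most 0.437. None was called among 6 epicardial markers (median -0.27), 2 of Schwann cells and neurons (0.16) and 1 of erythrocytes (0.97). The part of these cells in the lower cytoskeletal and matrix genes was not tested, and in a sorted bulk sample fewer cells of a type and less RNA per cell cannot be told apart.

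Among genes higher in DKO, Arc stood first by log2 ratio, and it lies 6.34 Mb from Mrtfa, as described below. Arc (chromosome 15, 74669083 to 74672570), a capsid-forming protein of synapses and an immediate early gene, had 0.323, 0.496 and 1.21 CPM in MKO and 8.06, 18.9 and 35.8 in DKO. Every DKO library exceeded the highest MKO library, with a log2 ratio of 5.11 ± 0.59 (adjusted p = 1.51e-05). Ctrl libraries had 0.204 to 1.49 CPM and TKO libraries 0.552 to 17.6. It was the 1 called gene of 23 tested immediate early genes, whose median was 0.34, and Jun (0.53 ± 0.27, adjusted p = 0.345) and Jund (0.34 ± 0.15, adjusted p = 0.29) did not pass. Il15 (chromosome 8, 82331624 to 82402586), a cytokine that maintains natural killer and memory T cells, had 2.03, 13.4 and 15.1 CPM in MKO and 26.3, 34.1 and 62.5 in DKO. The highest DKO value was DKO 1, MKO 4 and MKO 6 were near 2 CPM (2.03 and 2.05), and the groups did not overlap. Its log2 ratio was 1.88 ± 0.42 (adjusted p = 0.0292) and 1.70 without DKO 1 (adjusted p = 0.0455), and its receptor chain Il15ra gave 0.31 ± 0.11 (adjusted p = 0.224).

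Tcap, telethonin of the sarcomere's Z-disc, had 654, 803 and 916 CPM in MKO and 1012, 1163 and 3367 in DKO. All DKO libraries were above all MKO libraries, but 3367 was DKO 1 and the other DKO libraries ended at 1368. The log2 ratio was 0.93 ± 0.22 (adjusted p = 0.0367) with DKO 1 and 0.53 without it (adjusted p = 0.0154). It was the 1 called gene among 45 tested sarcomere genes, whose median was 0.14, and 0.04 without DKO 1. Without DKO 1 the list also held Actc1 as lower, and with a sex term Myot as higher (adjusted p = 0.0332). DKO 1 had 26.6 CPM of Myot and the other DKO libraries 10.3 to 15.3. None passed among 38 genes of the costamere and intercalated disc, 34 of calcium handling, 15 ventricular genes or 28 cardiac transcription factors. The counts moved in 1 of these: with a sex term the costamere list had 1 higher and 5 lower genes, and Vcl was its 1 lower gene without DKO 1. Among 32 fetal and stress genes Acta2 was the 1 called. Of 12 atrial genes none was called although their median was 0.84: Myl7, the atrial myosin light chain, had 0.0931 to 8.22 CPM in MKO and 0.331 to 77.5 in DKO (2.94 ± 1.10, adjusted p = 0.224), and sarcolipin (Sln) 0 to 1.13 and 0 to 13.5 (3.62 ± 1.16, adjusted p = 0.157). Both overlapped widely, and the part of atrial cells in these levels was not tested.

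The other genes higher in DKO include several enzymes. Gclm, the modifier subunit of the enzyme that limits glutathione synthesis, had 17.4, 24.2 and 27.8 CPM in MKO and 27.5, 34.0 and 49.9 in DKO (log2 ratio 0.62 ± 0.13, adjusted p = 0.021). It was the 1 called gene of 22 tested in the oxidative stress list, to which a sex term added Ucp2, and DKO 1 was its highest library. Aox1, aldehyde oxidase, had 8.64, 10.01 and 14.2 CPM against 12.4, 19.8 and 25.0, with the lowest DKO value in DKO 1 (0.89 ± 0.17, adjusted p = 0.00772). Pla2g6 and Pla2g4e, both phospholipases, had 13.4 to 17.9 against 20.2 to 29.5 CPM and 12.1 to 19.2 against 22.3 to 26.9 CPM. Their log2 ratios were 0.59 ± 0.11 (adjusted p = 0.00741) and 0.65 ± 0.13 (adjusted p = 0.0104), both without overlap. Plbd1, a phospholipase B-like protein, had 40.1, 43.9 and 49.3 CPM against 61.0, 66.8 and 115 (0.75 ± 0.13, adjusted p = 0.0027), where 115 was DKO 1. Mapk12, a p38 kinase of striated muscle, had 10.1, 11.8 and 14.8 CPM against 15.2, 18.2 and 22.1 (0.64 ± 0.14, adjusted p = 0.0304). The microtubule-organising augmin subunits Haus8 and Haus1 were both higher. Haus8 had 19.2 to 40.7 CPM in MKO and 52.0 to 65.9 in DKO (0.91 ± 0.19, adjusted p = 0.015). Haus1 had 13.1 to 16.3 CPM in MKO and 18 to 31.2 in DKO (0.60 ± 0.13, adjusted p = 0.0226).

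Rpl3 was the 1 called gene among 48 ribosomal protein genes. With a sex term 2 members were called higher, Rpl15 (adjusted p = 0.0249) among them, and 1 lower. Rpl3 had 4.84, 6.88 and 8.14 CPM in MKO and 1.22, 2.22 and 3.20 in DKO, with no overlap (log2 ratio -1.63 ± 0.24, adjusted p = 0.000348), while 45 of the 48 lay above 0 and their median was 0.32. Without DKO 1, 39 lay above 0 and the median was 0.17, and with a sex term 47 lay above 0 and the median was 0.47. The list summed to 1723 CPM in DKO 1 and to 795 to 1042 in the other DKO libraries. Rpl3l, the paralogue used in striated muscle, had a mean of 46.8 CPM in MKO and 70.6 in DKO (log2 ratio 0.59 ± 0.25, adjusted p = 0.277). Ribosomal protein genes have many near-identical pseudogenes, so these counts are uncertain, and Rpl3 lies 0.929 Mb from Mrtfa. No gene was called among 26 genes of the integrated stress response, 21 heat shock genes, 18 clock genes, 34 interferon and antigen presentation genes, 28 cell cycle genes or 25 p53 targets. Without DKO 1 the p53 target Perp, a membrane protein of desmosomes, was lower in DKO (log2 ratio -0.57 ± 0.12, adjusted p = 0.0193), against -0.41 ± 0.15 (adjusted p = 0.209) with it. Perp did not pass with a sex term over all libraries (adjusted p = 0.127).

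Some called genes lay near the targeted loci. Within 10 Mb of Mrtfa, on chromosome 15, 11 of 222 tested genes were called (4.95%), 7 higher and 4 lower, at distances of 0.851 to 7.94 Mb. Within 10 Mb of Mrtfb, on chromosome 16, 4 of 161 were called (2.48%), 2 in each direction. Elsewhere it was 80 of 11896 (0.672%), 28 higher and 52 lower, and the difference between these shares was not tested. Near Mrtfa lay Arc, Jrk, Lypd2, Lynx1, Lgals2, Micall1, Slc16a8, Pla2g6, Rpl3, Tab1 and Mapk12, and near Mrtfb lay Snn, P2rx6, Rtn4r and Eif4a2. Of these, Arc and Jrk (higher) and Lypd2 and Lynx1 (lower) lie close together on one side of Mrtfa, 6.26 to 6.34 Mb away. Sgsm3, Adsl and Tnrc6b, the tested genes closest to Mrtfa, were not called, with log2 ratios of 0.02, 0.10 and 0.08. DKO mice carry engineered alleles at both loci and MKO mice do not, and whether the chromosome around these alleles also differs between the strains cannot be told apart from an effect of the lost proteins here. None of the 7 called cytoskeletal genes lay in these stretches. They hold only 222 and 161 of the 12281 tested genes, so this describes position only.

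A pair of genes near Mrtfa had no or almost no reads in one group. Lypd2, an LY6 family gene 6.28 Mb away, had 0.703 to 1.05 CPM in MKO, from 57 reads in all, and 0 reads in every DKO library. A count of 0 over the group allows up to 0.0479 CPM, so the gene was at least 17.3-fold lower in DKO (adjusted p = 3.46e-05). Ctrl libraries had 0.974 to 1.39 CPM and TKO libraries at most 0.158. Lgals2, galectin 2, at 2.16 Mb, had 3 reads over all MKO libraries and 84 over the DKO libraries, at 0.2, 1.29 and 2.12 CPM (adjusted p = 0.00101), 0 in every Ctrl library and 0.871 to 3.23 CPM in TKO. Both followed the engineered genotype in all 24 libraries: Lypd2 was lower and Lgals2 higher in every DKO and TKO library than in every Ctrl and MKO library. For Lgals2 the separation rests on few reads, with 0.2 CPM in the lowest DKO library and 3 reads over all MKO libraries.

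A further stretch was picked after its values were seen, and its outermost called genes set its ends. That choice raises its share of called genes, which cannot be set beside the shares near Mrtfa and Mrtfb. On chromosome 8, between 69.6 and 75.2 Mb, 6 of 97 tested genes were called (6.19%), 5 lower (Zfp868, Nr2c2ap, Rfxank, Ocel1 and Rasd2) and 1 higher (Haus8). Ocel1 had 10.9, 14.7 and 18.2 CPM in MKO and 4.37, 5.61 and 7.39 in DKO (log2 ratio -1.38 ± 0.16, adjusted p = 1.41e-05). Zfp868, a zinc finger gene, had 10.7, 18.6 and 28.8 CPM against 7.18, 8.16 and 9.48 (-1.16 ± 0.20, adjusted p = 0.00285). Elsewhere and picked likewise, on chromosome 17, where 4 of 596 tested genes were called (0.671%), Tagap, a GTPase-activating protein known from T cells, had 0 to 0.323 CPM in MKO and 0.110, 1.72 and 3.26 in DKO with overlap (3.60 ± 0.56, adjusted p = 0.00101), and the pseudogene Tmem181b-ps was higher as well (1.76 ± 0.31, adjusted p = 0.00307). By chromosome the called share was highest on 15 (12 of 484 tested genes, 2.48%), 16 (9 of 394, 2.28%), X (7 of 402, 1.74%) and 8 (11 of 672, 1.64%). Over all tested genes it was 0.79%. The count on 15 includes the 11 genes near Mrtfa, that on 16 the 4 near Mrtfb, and that on 8 the 6 of the stretch picked above. The X chromosome genes were Renbp, Zcchc5, Pnck, Tmem164, Tmem47 and Sh3kbp1, lower, and Pir, higher, and all 7 also passed with a sex term.

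**Figure D4:**
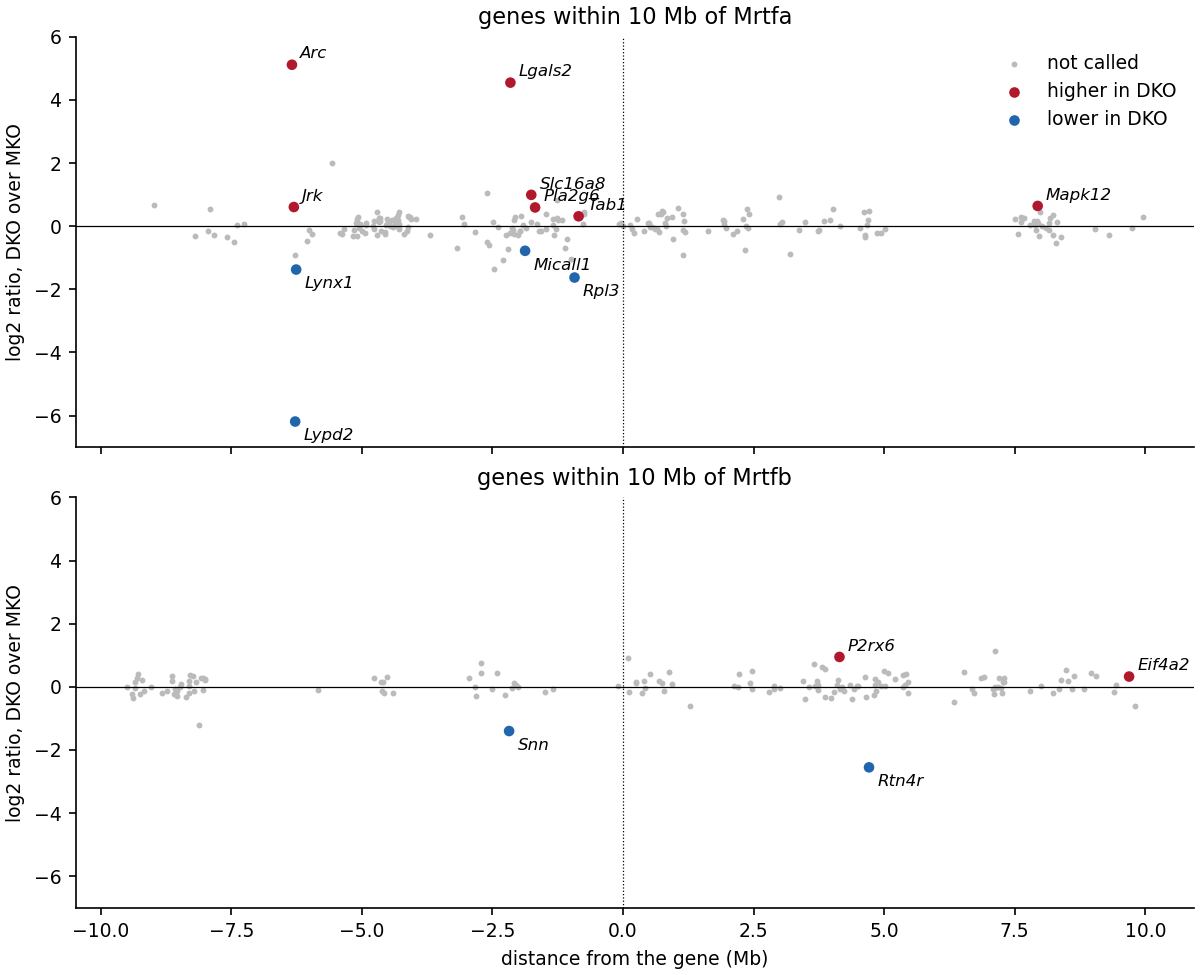
Log2 ratio of DKO over MKO for tested genes within 10 Mb of Mrtfa (upper panel, 222 genes) and of Mrtfb (lower panel, 161 genes) against the distance from the gene in Mb. The 11 and 4 called genes are coloured and named, lie 0.851 to 7.94 Mb and 2.18 to 9.69 Mb away, and point in both directions.

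The TKO and Ctrl libraries, none of which enters the DKO and MKO groups, differ in the same engineered alleles and in the myocardin guide together. Of the 60 genes lower in DKO than in MKO, 56 were also lower in TKO than in Ctrl by sign, 41 of them called (68.3%), against 5.98% of all tested genes called lower there. Of the 37 higher genes, 36 had the same sign and 25 were called higher (67.6%), against 8.14% of all tested genes. The median log2 ratios of TKO over Ctrl were -0.76 and 0.83, and -0.01 over all tested genes. Only Ntn1 was called in the opposite direction, lower in DKO than in MKO and higher in TKO than in Ctrl (0.59, adjusted p = 0.0251). The 66 genes called in the same direction in both are 68.0% of the 97 and 3.81% of the 1734 genes called in TKO against Ctrl. When genes near the targeted loci were set aside, 33 of 52 lower and 19 of 28 higher genes were called the same way. With the TKO and Ctrl libraries fitted alone, 41 of the 60 lower genes and 25 of the 35 higher genes tested there were called the same way, against 7.67% of all genes called lower and 9.55% called higher in that fit, and 2 lower genes were called the opposite way.

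Sizes in the 2 comparisons differed by gene. Acta2 and Actg1 had log2 ratios of -2.76 and -2.14 in TKO over Ctrl beside -1.64 and -1.41 in DKO over MKO, and Cnn2 and Pdlim7 -1.77 and -1.47 beside -1.27 and -0.84. Myl9, Wdr1 and Dstn gave -2.38, -0.61 and -0.54 beside -2.55, -0.61 and -0.76. Gnao1 had 3.13 beside 0.90 and Hspa1l, a heat shock protein of the Hsp70 family, 2.0 beside 0.58. Among the genes that TKO did not share were Plekhh1 (-0.13, adjusted p = 0.788), Prkab2 (-0.11, adjusted p = 0.792), Smad7 (-0.35, adjusted p = 0.344), Slc16a1 (-0.09, adjusted p = 0.643) and Klhl32 (0.03, adjusted p = 0.93). The differences between the 2 comparisons were not tested.

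**Figure D5:**
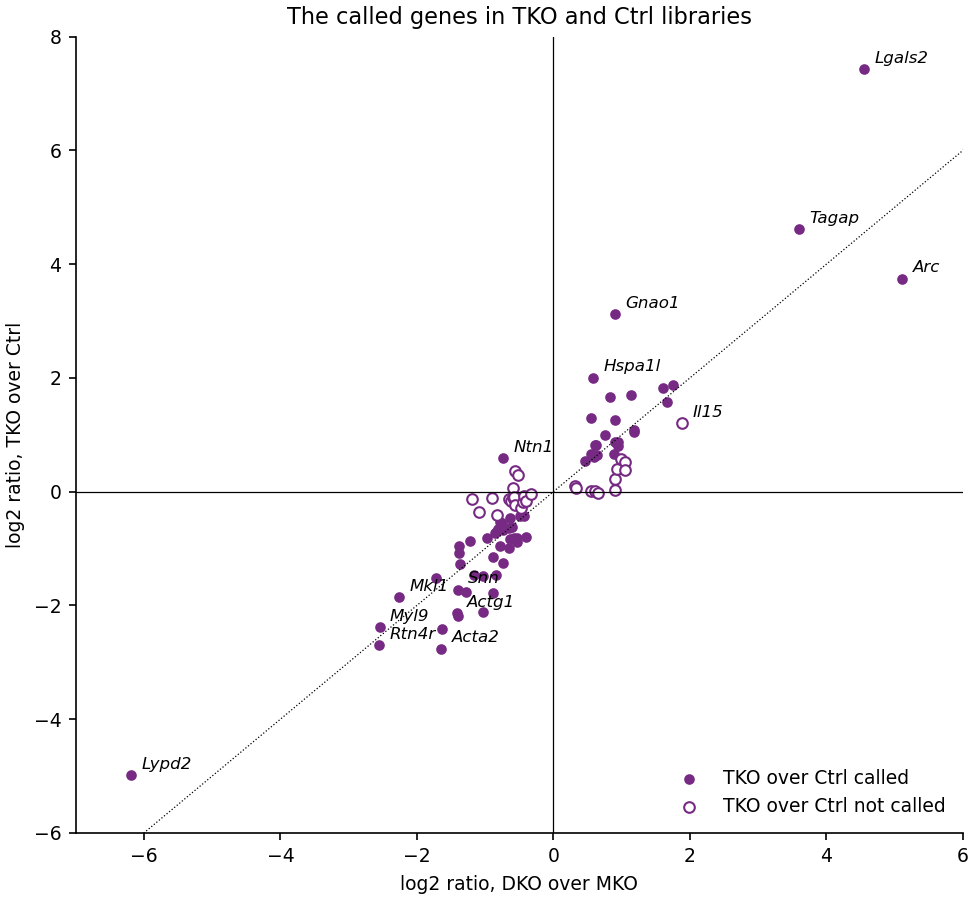
Log2 ratio of DKO over MKO against log2 ratio of TKO over Ctrl for the 97 called genes, filled where TKO over Ctrl was also called, with the dotted line marking equal ratios. Filled points lie at the lower left and upper right except Ntn1, and Lypd2 and Lgals2 have fitted ratios set by groups at or near 0 reads.

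The levels in Ctrl libraries were set beside both groups, with no test. The Ctrl mean lay between the DKO and MKO means for 66 of the 97 genes. It was nearer the MKO mean for 86 and nearer the DKO mean for 11, namely Renbp, Plekhh1, Fbxo46, Cds2, Ncam1, Aldh1b1, Eif4a2, Pfn2, Haus1, Klhl32 and Zfp934. Plekhh1 was such a gene: Ctrl libraries had 34.0 to 56.6 CPM, MKO 57.7 to 79.2 and DKO 7.79 to 44.5, so MKO lay above Ctrl and DKO overlapped it. Myl9 was an intermediate case, with Ctrl below every MKO library and above every DKO library. Ncam1, a cell adhesion molecule, had 55.5 to 64.9 CPM in Ctrl, 73.1 to 79.8 in MKO and 29.0 (DKO 1) to 67.1 in DKO.

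The authors' deposited table of this comparison, whose direction was read from its Mrtfa row, called 473 genes at an adjusted p under 0.05, 227 higher and 246 lower in DKO. It included all 97 genes and all 128 called without DKO 1. The mean levels in the authors' deposited table matched, within 0.1% for 100% of 14459 genes, those computed from the 11 DKO and MKO libraries other than DKO 1, so its values leave that library out. In the authors' deposited table Myocd was called higher in DKO (log2 fold change 0.52, adjusted p = 0.00093), and Srf and Acta1 lower (-0.60, adjusted p = 3.43e-05, and -1.51, adjusted p = 0.00053).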

How the data were processed

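Poly-A RNA of sorted cardiomyocytes was sequenced in 24 libraries, 6 per group, with an unstranded kit, per the labels' protocols. The authors deposited raw read counts per gene for 23337 genes, made with STAR and featureCounts on mm10 per the submitters' processing notes, with versions, annotation and the handling of multi-mapped reads not given in the sources used here. Mitochondrially encoded genes are not in it. The authors also deposited a DESeq2 table of this comparison, with log2 fold changes, mean normalized signal, a test score, p-values and adjusted p-values, per the file headers.

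Counts were tested with edgeR 4.0.16 (R 4.3.3, limma 3.58.1): TMM scaling, the filterByExpr filter at a minimum count of 10 (12281 genes), a quasi-likelihood fit over all 24 libraries and the contrast of DKO minus MKO, with Benjamini-Hochberg adjustment over all tested genes and calls at 0.05. CPM values are scaled by TMM library sizes. Errors of log2 ratios are standard errors. Alternatives were DESeq2 1.42.0, limma voom, other scaling and filters, a sex term, a replicate block, the 12 libraries alone and each library left out. The fit was checked on simulated data. Tables and plots were made with Python 3.11.15, pandas 2.3.3 and matplotlib 3.10.9. Library sex was read from Xist and Y-linked counts.

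Members and gene lists (37 lists, 904 of 915 entries matched) were chosen with earlier results of these data known. Named genes were Myocd, Mrtfa, Mrtfb and Srf, the 15 largest called differences in each direction with a group mean of at least 10 CPM and at least 5 of 6 libraries of each group beyond the other group's mean, and up to 4 genes per list. Any other gene was picked after its values were seen. Promoters came from RefSeq (GRCm38.p6). Gene coordinates are those of the deposited table. The other deposited comparison tables were not used here.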

Additional observations from a re-analysis of the deposited data

Results flagged for a closer look

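In 37 of 234 groups of 6 values checked, 1 library lay farther from its nearest neighbour, as a share of the group's range, than Dixon's 95% limit of 0.625, and chance gives about 11.7. The groups are the DKO and the MKO values of each gene named in the text, and the total counts. Some genes were named because their call changed without DKO 1 or with a sex term, so the chance figure is no fair measure. DKO 1 was the outlying library in 22 of the 37. It was the highest DKO library, with the gap as a share of the range in brackets, for Actb (0.638), Actc1 (0.807), Adsl (0.722), Capzb (0.71), Il15 (0.73), Myot (0.689), Pdlim7 (0.796), Plbd1 (0.734), Rpl15 (0.767), Srf (0.783), Tcap (0.849) and Ucp2 (0.917). For Ucp2, DKO 1 had 2497 CPM against 777 to 920 in the other DKO libraries. It was the lowest for Abcc9 (0.716), Aldh1b1 (0.85), Elk1 (0.732), Itgb1 (0.726), Mmp15 (0.663), Myh6 (0.666), Myh9 (0.831), Pdk1 (0.64), Tmem47 (0.628) and Vcl (0.703).

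The remaining single libraries were spread over others. DKO 2 was the lowest library of its group for Zfp934 (0.643). DKO 5 was the highest library of its group for Smad7 (0.662). DKO 6 was the highest library of its group for Kcne1 (0.714), Myh11 (0.743) and Tagln (0.651). MKO 1 was the highest library of its group for Cyr61 (0.663). MKO 2 was the highest library of its group for Arc (0.672) and Flna (0.662). MKO 2 was the lowest library of its group for Adra1d (0.767). MKO 3 was the highest library of its group for Micall1 (0.766) and Osbpl3 (0.71). MKO 3 was the lowest library of its group for Tnrc6b (0.642). MKO 5 was the highest library of its group for Aox1 (0.626). MKO 6 was the highest library of its group for Rasd2 (0.671) and Vasp (0.799). For Smad7 that library had 19 CPM against 5.59 to 10.1 in the others. For Arc that library had 1.21 CPM against 0.323 to 0.612 in the others. For Vasp that library had 54.2 CPM against 37 to 40.5 in the others.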

How the results depend on the processing

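None of the 97 genes changed sign under any alternative that tested it. Over 39 named called genes, 915 of 1043 values under alternatives stayed on the same side of the threshold and 128 did not, and 1 gene passed in every alternative. The count of called genes, with those higher and lower in DKO, depended on the fit. It was 48 (15 and 33) with the 12 libraries alone, 248 (138 and 110) with DESeq2 on 24 libraries, 214 (113 and 101) with DESeq2 on 12, 530 (273 and 257) with voom and quality weights, and 366 (210 and 156) with a sex term. After the data were seen, fits were added: 185 (79 and 106) with the 12 libraries less DKO 1, 362 (214 and 148) with a sex term less DKO 1, 230 (123 and 107) with the replicate block less DKO 1, and 1 (0 and 1) in female libraries alone, where fewer libraries enter. Leaving out each library in turn gave 53 to 128 genes, 18 to 52 of them higher and 35 to 76 lower. With genes near the targeted loci left out, 24 higher and 45 lower genes were called. The share of calls that were higher in DKO was 38.1% in the fit reported, and 55.6%, 52.8%, 51.5%, 57.4%, 59.1% and 53.5% with DESeq2 on 24 and on 12 libraries, voom, the sex term, the sex term less DKO 1 and the block less DKO 1. The causes were not tested.

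The groups share replicate numbers that nothing in the labels ties to a litter or day. The correlations of same-numbered deviations were 0.12, 0.03, 0.09, 0.02, -0.20 and 0.27, and no library correlated best with its own number. With the replicate block 123 genes were called, 54 higher and 69 lower. Depth limits the genes at a few CPM: 22 of the 97 were under 10 CPM in both groups.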
